A study of Mus musculus with 9 samples.

Results

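Aortas of mice carrying Cre under the smooth muscle promoter Sm22 were compared directly with aortas of mice carrying Cre under the endothelial promoter Cdh5, in a series whose title concerns the angiotensin II type 1a receptor (Agtr1a) in Marfan syndrome. All animals were male, 90 days old, of the strain background 129T2SvEmsJ:C57Blk/6J, and all carried the floxed AT1ar allele, so that Cre was meant to delete the receptor gene in smooth muscle cells in the first group (Sm22-Cre) and in endothelial cells in the second (Cdh5-Cre). The remaining group, floxed with no Cre transgene, is given only as a level beside these. No allele of the Marfan gene Fbn1 is named in the labels, and they do not say whether either Cre is inducible. Each group held 3 libraries of whole frozen aorta, and the deposited table gives 1 FPKM value per gene and group (fragments mapped to a gene, scaled for transcript length and library size). The values of single aortas are not in this table, so no difference below has a replicate check, and no p-value, standard error or interval is given.

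Genes were included when they had 1 FPKM or more in either Cre group and no HIDATA status, the mark of a locus with too many fragments to be quantified. This left 14134 of the 37668 genes in the table. The measure was the log2 ratio of (FPKM + 1), Sm22-Cre over Cdh5-Cre, so a negative value means lower in Sm22-Cre, which is the same as higher in Cdh5-Cre. A gene was counted past the threshold when this ratio reached 2-fold.

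Angiotensin II acts on vascular smooth muscle through the type 1 receptor, a Gq- and G12/13-coupled receptor that raises intracellular calcium, and mice have a second copy of it, Agtr1b. Cdh5 encodes VE-cadherin, the adhesive protein of endothelial junctions, and Tagln encodes SM22, an actin-binding protein of smooth muscle. Cdh5-driven Cre lines are known to act also in blood-forming precursors, and Sm22-driven lines also in embryonic heart muscle. The wall of the aorta holds smooth muscle, endothelium and adventitial fibroblasts, and at its root it adjoins the heart.

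The targeted gene was low and nearly equal in the 2 Cre groups. Sm22-Cre aortas had 1.21 FPKM of Agtr1a (ENSMUSG00000049115; chromosome 13, 30428310 to 30474736 of mm9), Cdh5-Cre 1.32 and floxed 1.75, and its log2 ratio between the Cre groups was -0.07. Agtr1b was listed at 0.39, 0.30 and 0.35 FPKM in the same order. Which exons are floxed is not stated, so a whole-gene value of this size does not check the deletion in either cell type. Cdh5 (mm9 chromosome 8, 106625525 to 106668402) was at 13.6 FPKM in Sm22-Cre and 19.1 in Cdh5-Cre, and Tagln (mm9 chromosome 9, 45646663 to 45744141, a locus shared with another gene) at 4112 and 4477 FPKM. The labelled tissue showed in the smooth muscle contractile genes, which summed to 20006 FPKM in Sm22-Cre, 23604 in Cdh5-Cre and 20240 in floxed; only red cell genes in Cdh5-Cre summed higher among the cell type lists. Acta2 is listed at 0 in every group with HIDATA status, which is a failed estimate and not a measurement.

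The 2 Cre groups differed little over most genes, and the differences that passed 2-fold were mostly lower in Sm22-Cre. Of the 14134 genes, 57 (0.403%) were higher in Sm22-Cre by 2-fold or more and 175 (1.24%) were lower, 232 (1.64%) in all. At a ratio of 1.5, 618 (4.37%) were higher and 1077 (7.62%) lower. At any size, 49.1% were higher and 50.9% lower, the median log2 ratio was -0.01, and 88.0% of genes lay within 1.5-fold. Among the 175 lower genes, 23 belonged to the heart and skeletal muscle lists, 18 to the lists of blood cells and 49 to any cell type list. Of the 14134 genes, the heart and skeletal muscle lists held 40 and 10. The platelet, red cell, neutrophil, macrophage and lymphoid lists held 17, 9, 6, 20 and 8. None of the 57 higher genes belonged to a cell type list. However, only 24 of the 57 were protein-coding and 23 were listed at 0 in Cdh5-Cre. Of the 175 lower genes, 108 were protein-coding and 25 were listed at 0 in Sm22-Cre. Cell type lists hold few of the genes analysed, so their absence among 57 genes is not read as a result. The FPKM values summed to 500015 in Sm22-Cre, 607860 in Cdh5-Cre and 495724 in floxed, so the Cdh5-Cre scale stands apart from the others. With both Cre groups rescaled to equal sums, the median of all genes moved to 0.23 and the counts became 210 higher (69.8% of these) and 91 lower, against 24.6% higher as deposited. With sums made equal over genes other than mitochondrial, red cell, platelet and heart genes, the median was 0.15 and the counts were 127 higher (53.1%) and 112 lower. Differences are therefore read below relative to all genes.

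**Figure D1:**
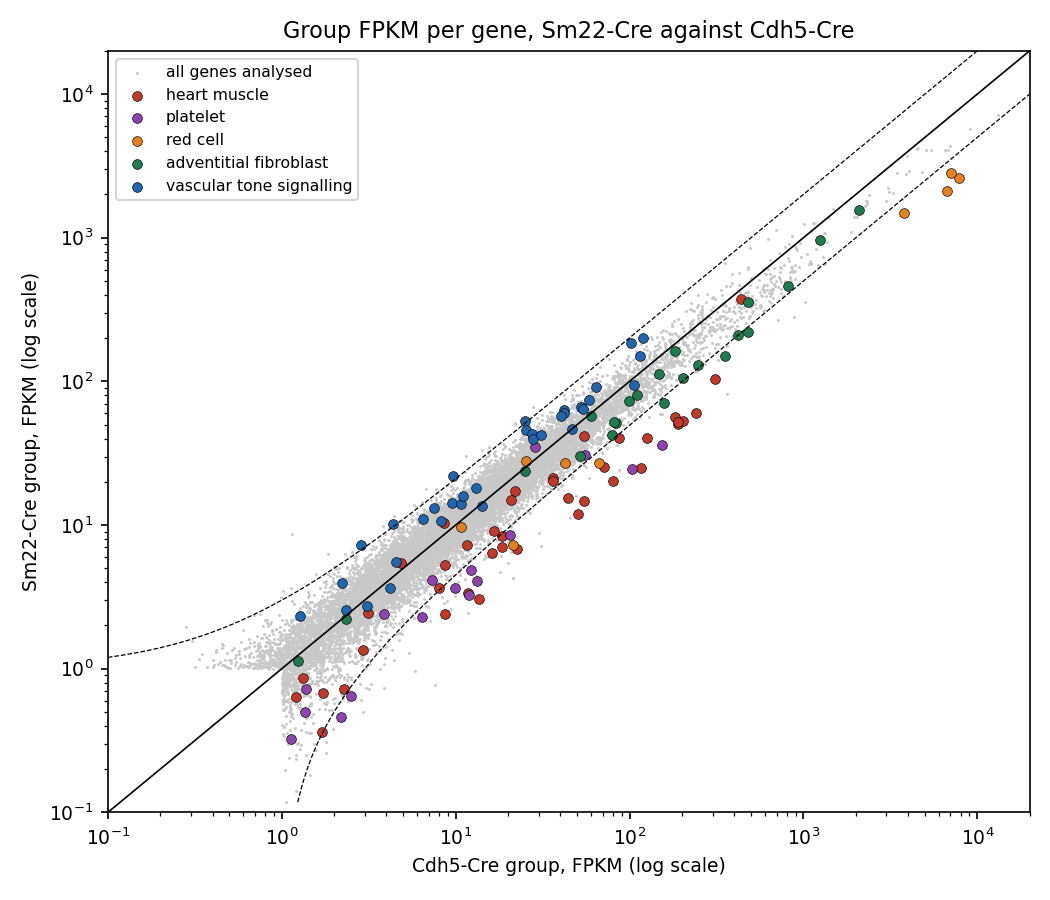
Group FPKM of each gene with values above 0 in both groups, Cdh5-Cre on the horizontal and Sm22-Cre on the vertical axis, both log scales; the solid line marks equality, the dashed lines a 2-fold ratio of (FPKM + 1), and coloured points are members of 5 gene lists. Heart muscle, platelet and red cell genes lie mostly below the solid line and many of them beyond the lower dashed line, and genes of vascular tone lie mostly above the solid line.

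Among the gene lists, heart muscle held the most genes lower in Sm22-Cre by 2-fold or more. Of the 41 listed genes 40 were measured, of which 38 were lower in Sm22-Cre and 21 were past 2-fold, against 1.24% of all genes. The median log2 ratio of the list was -1.07. Heart muscle shortens when myosin heads on the thick filament pull on thin filaments of actin, under control of the troponin complex, and the heart uses isoforms of these proteins that smooth muscle does not. The summed FPKM of the list was 1145 in Sm22-Cre, 2733 in Cdh5-Cre and 2013 in floxed.

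The heart genes that lie beside a CArG box, the site of serum response factor (SRF), are shown because the same box precedes genes that differed strongly here and genes that did not. In the promoter table of RefSeq (GRCm38.p6, 250 bases before the start, both strands searched), the CArG box was found in 4 of the 32 heart muscle promoters present there and in 3 of 20 smooth muscle promoters (15%), against 1.19% of 9897 promoters of genes analysed. The M-CAT letters CATTCC were in 7 of the 32 heart promoters (21.9%) and in 10.7% of all, and also in 6 of 20 smooth muscle (30%), 5 of 14 platelet (35.7%) and 4 of 7 mesothelial and epithelial promoters (57.1%), so they do not set the heart list apart. The last 150 bases before the start follow, 5′ to 3′, with CArG boxes and, for Myl7 and Myl3, CATTCC in capitals, and for the platelet gene Ppbp also TATAAA. A match of letters is a description and not a shown binding site.
Myl7, chr11:5898783-5898932, minus strand: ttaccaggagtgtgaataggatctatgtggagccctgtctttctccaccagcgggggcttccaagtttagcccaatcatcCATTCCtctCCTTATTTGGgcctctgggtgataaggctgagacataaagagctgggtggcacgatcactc
Myl3, chr9:110763528-110763677, plus strand: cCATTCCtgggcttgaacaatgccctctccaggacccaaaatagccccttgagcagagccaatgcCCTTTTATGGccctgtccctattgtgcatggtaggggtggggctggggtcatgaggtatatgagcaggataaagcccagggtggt
Actc1, chr2:114052876-114053025, minus strand: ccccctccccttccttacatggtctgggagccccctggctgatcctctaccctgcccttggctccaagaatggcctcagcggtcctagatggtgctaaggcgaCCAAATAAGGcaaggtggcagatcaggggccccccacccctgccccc
Ldb3, chr14:34588682-34588831, minus strand: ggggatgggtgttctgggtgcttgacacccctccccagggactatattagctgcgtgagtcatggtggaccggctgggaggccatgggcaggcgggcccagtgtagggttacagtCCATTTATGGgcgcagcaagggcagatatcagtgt
Srf, chr17:46556163-46556312, minus strand: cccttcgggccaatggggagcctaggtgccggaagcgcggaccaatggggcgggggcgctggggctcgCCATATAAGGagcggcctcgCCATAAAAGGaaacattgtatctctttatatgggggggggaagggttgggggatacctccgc
Ppbp, chr5:90768368-90768517, plus strand: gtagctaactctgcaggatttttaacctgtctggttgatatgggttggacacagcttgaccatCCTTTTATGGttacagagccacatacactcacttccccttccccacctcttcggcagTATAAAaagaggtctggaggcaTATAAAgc
The box lies 61 to 52 bases before the start in Myl7, 85 to 76 in Myl3, 47 to 38 in Actc1 and 35 to 26 in Ldb3. Myl7, Myl3 and Actc1 had log2 ratios of -1.91, -1.95 and -1.68 between the Cre groups, whereas Ldb3, with the box nearest its start, had -0.38. Srf, which carries a pair of boxes, was at 35.4 FPKM in Sm22-Cre and 38.3 in Cdh5-Cre, a log2 ratio of -0.11.

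Among thick filament genes all 7 measured members were lower in Sm22-Cre by more than 2-fold, with a median log2 ratio of -1.91. Myl2 (mm9 chromosome 5, 122550960 to 122588966), the regulatory light chain of ventricular myosin, stood at 24.9 FPKM in Sm22-Cre, 116 in Cdh5-Cre and 58.2 in floxed, which is 4.66 times as high in Cdh5-Cre. Its atrial counterpart Myl7 (mm9 chromosome 11, 5796640 to 5798785) stood at 53.2, 202 and 135 FPKM, a ratio of 3.80. Sm22-Cre was the lowest and Cdh5-Cre the highest of the 3 groups for both. The atrial heavy chain gene Myh6, which in the mouse also serves the adult ventricle, stood at 40.5, 125 and 97.3 FPKM. Myh7, the slow heavy chain, stood at 3.37, 11.8 and 7.25 FPKM, and Mybpc3, the binding protein that braces the thick filament, at 6.41, 16.2 and 14.7 FPKM. Atrial (Myl7, Myl4) and ventricular (Myl2, Myl3) light chains were alike in this, with log2 ratios of -1.91, -1.91, -2.18 and -1.95. Myh6 and Myh7 are neighbours with separate listed loci. Each shares its listed locus with some other gene, so each estimate may be divided with that gene.

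The other light chain genes followed tissue only in part. Fast skeletal Myl1 was at 7.01 FPKM in Sm22-Cre and 20.8 in Cdh5-Cre, a log2 ratio of -1.44. Smooth muscle and general light chains had ratios nearer 0: -0.41 for Myl9, the light chain that is phosphorylated to start smooth muscle contraction, -0.49 for Myl6, -0.27 for Myl12a, -0.73 for Myl12b and -0.30 for Myl6b. All 10 measured genes named Myl with a number were lower in Sm22-Cre. Of these, 5 were past 2-fold, and those 5 are isoforms of striated muscle. The genes are short, with transcripts of 590 to 1082 bases for those 5, which matters for the trend with length described below. Mylpf, a fast skeletal filament gene outside that naming, was at 1.15 FPKM in Sm22-Cre and 1.40 in Cdh5-Cre, a log2 ratio of only -0.16.

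All 4 thin filament genes were past 2-fold lower, with a median of -1.77. Cardiac actin, Actc1, stood at 56.2 FPKM in Sm22-Cre, 182 in Cdh5-Cre and 125 in floxed. The troponin subunits were Tnni3 at 60.2, 241 and 145 FPKM, Tnnt2 at 104, 309 and 189 FPKM, and Tnnc1, the calcium sensor, at 3.04, 13.6 and 8.09 FPKM. Troponin is absent from the smooth muscle apparatus, which uses myosin light chain kinase in its place. All 4 energy and oxygen genes were also past 2-fold lower, with a median of -1.72. They were Mb (myoglobin, 52.1 FPKM in Sm22-Cre and 191 in Cdh5-Cre), Cox6a2 (the striated muscle isoform of a cytochrome oxidase subunit, 14.7 and 55.0), Ckmt2 (mitochondrial creatine kinase, 6.84 and 22.7) and Fabp3 (the heart fatty acid carrier, 40.3 and 86.5).

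The remaining heart muscle roles were less uniform. Of 9 Z-disc and titin genes all were lower and 3 were past 2-fold, with a median of -0.74. Csrp3, a stretch-sensing LIM protein of the Z-disc, was at 11.9 and 50.4 FPKM, whereas Tcap, the titin cap, was at 375 and 436 FPKM and Ttn itself at 0.637 and 1.21. Among 6 calcium genes, Sln (sarcolipin, the atrial calcium pump inhibitor, 15.5 and 44.5 FPKM) and Casq2 (the calcium store protein, 7.08 and 18.4) were past 2-fold. The ryanodine receptor Ryr2 was at 5.46 and 4.83 FPKM, the reverse direction. Nppa, the atrial natriuretic peptide, was at 25.5 and 71.2 FPKM. None of the 5 cardiac transcription factors was past 2-fold, with a median of -0.70. Nkx2-5 was at 0.722 and 2.28 FPKM, Gata4 at 5.24 and 8.71, and Tbx20 at 10.3 and 8.52.

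**Figure D2:**
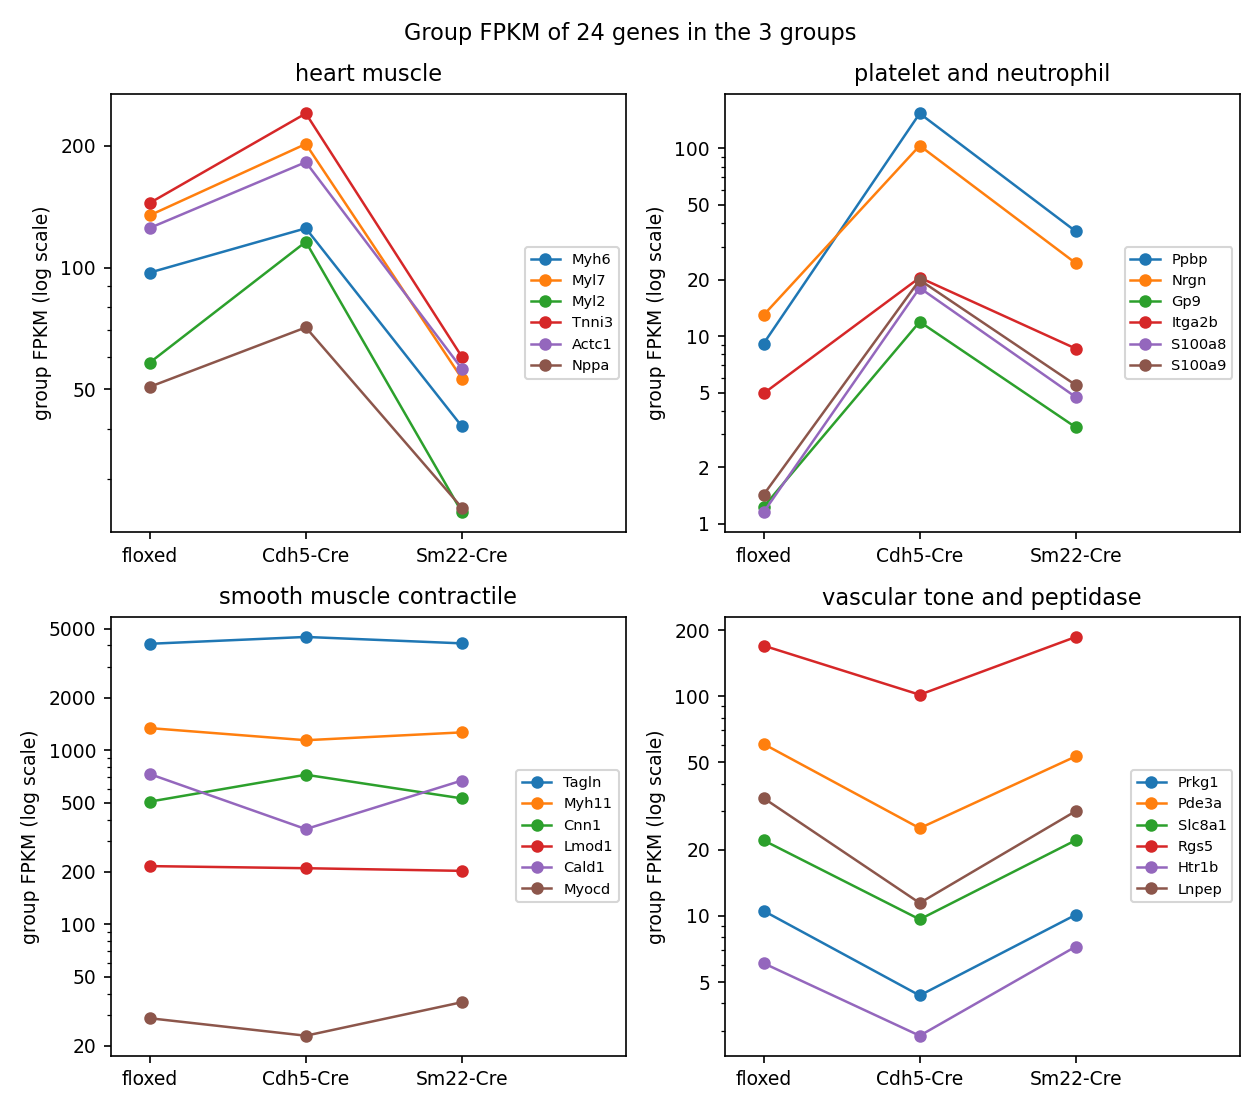
FPKM of 24 genes in the floxed, Cdh5-Cre and Sm22-Cre groups, on a log vertical axis; each line joins the 3 group values of a gene and no error can be shown. Heart muscle genes are lowest in Sm22-Cre, platelet and neutrophil genes are lowest in floxed, smooth muscle genes differ less, with Cald1 and Myocd lowest and Cnn1 highest in Cdh5-Cre, and the genes of vascular tone and Lnpep are lowest in Cdh5-Cre.

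The floxed level places the heart muscle genes between the Cre groups. The median log2 ratio of the list was -0.87 for Sm22-Cre over floxed and 0.47 for Cdh5-Cre over floxed, in comparisons that share groups with each other and with the one described here. In whole tissue, fewer cells of a type and less RNA per cell cannot be told apart, and the labels do not say how much of the aortic root each sample held. Of 19 fast skeletal muscle genes 10 were measured, 9 of which were lower and 2 past 2-fold, with a median of -0.23, or -0.95 among members with the status OK. The 2 were Ckm, muscle creatine kinase, which the heart expresses as well (7.19 FPKM in Sm22-Cre, 31.0 in Cdh5-Cre), and Myl1. Eno3, muscle enolase, and Acta1, skeletal actin, had ratios of -0.98 and -0.95. The remaining measured members were nearer 0: Pygm -0.28, Tnnt3 -0.19, Mybpc2 -0.18, Mylpf -0.16, Casq1 -0.01 and Myoz1 0.09. The defining fast fibre gene Myh1 was listed at 0.0247 and 0.0176 FPKM and was not among the genes analysed.

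The platelet and red cell lists held the next most genes lower in Sm22-Cre by 2-fold or more. Platelets carry RNA inherited from megakaryocytes, and reticulocytes carry globin RNA, so both appear in whole tissue that holds blood. Of 18 platelet genes 17 were measured, of which 16 were lower in Sm22-Cre and 10 past 2-fold, with a median log2 ratio of -1.12. Their summed FPKM was 162 in Sm22-Cre, 435 in Cdh5-Cre and 104 in floxed. Ppbp (mm9 chromosome 5, 91197544 to 91199086), the precursor of a platelet chemokine, was at 36.1 FPKM in Sm22-Cre, 153 in Cdh5-Cre and 9.12 in floxed. Nrgn, a calmodulin-binding protein abundant in platelets, was at 24.4, 103 and 12.9 FPKM. Cdh5-Cre was the highest and floxed the lowest of the 3 groups for both genes.

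The receptor complex that binds von Willebrand factor gave ratios of -1.60 for Gp9, -1.23 for Gp1bb, -1.12 for Gp5 and -0.47 for Gp1ba. The fibrinogen receptor subunit Itga2b was at 8.58 FPKM in Sm22-Cre, 20.5 in Cdh5-Cre and 4.95 in floxed. Its partner Itgb3, which smooth muscle and endothelium also make, was at 34.9, 28.6 and 33.6 FPKM and was the only measured member that was higher in Sm22-Cre. Pf4, another platelet chemokine and a neighbour of Ppbp, was at 31.0, 55.5 and 26.9 FPKM, a log2 ratio of -0.82. Its ratio was thus smaller than that of Ppbp. The cytoskeletal gene Tubb1 (4.86 and 12.2 FPKM) and the signalling gene Rgs18 (2.30 and 6.40 FPKM) both had a ratio of -1.17.

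Of 15 red cell genes 9 were measured and 6 were past 2-fold lower, with a median of -1.32. Their summed FPKM was 9100.1 in Sm22-Cre, 25552 in Cdh5-Cre and 4085 in floxed, and they held 1.82%, 4.20% and 0.824% of the FPKM totals. The adult alpha globins Hba-a1 (2586, 7867 and 1201 FPKM) and Hba-a2 (2110, 6703 and 972) and the beta globins Hbb-bs (2809, 7038 and 1188) and Hbb-bt (1496, 3777 and 647) gave ratios from -1.67 to -1.32. Each of these pairs is nearly identical in sequence, so fragments may be split between copies. Alas2, the first enzyme of haem synthesis in red cells, was at 27.1 FPKM in Sm22-Cre and 67.1 in Cdh5-Cre. Fech, the last enzyme of the pathway in every tissue, was at 27.9 and 25.5 FPKM. Among red cell genes with the status OK alone the median was -0.39, since 3 of the 4 globins carry the status FAIL.

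The neutrophil markers that could be measured were lower too, and the macrophage markers were not. Calprotectin, the calcium-binding pair S100a8 and S100a9 of neutrophil cytosol, was at 4.73 and 5.49 FPKM in Sm22-Cre, 18.1 and 19.9 in Cdh5-Cre and 1.15 and 1.43 in floxed. Of 18 neutrophil genes 6 were measured, all lower, 2 past 2-fold. Of 20 macrophage genes, all measured, 9 were higher and 11 lower and none was past 2-fold, with a median of -0.07. Lyz2, the lysozyme of myeloid cells, was at 147 FPKM in both Cre groups. The tissue macrophage receptors Mrc1 (11.9 and 6.56 FPKM), Cd163 (8.45 and 4.68) and Adgre1 (6.43 and 3.92) were higher in Sm22-Cre by more than 1.5-fold. Of 8 measured lymphoid genes 7 were lower, with none past 2-fold and a median of -0.50. B cell genes were low, with Cd79a at 0.814 and 1.10 FPKM.

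Set beside floxed, the blood genes had another order than the heart genes. The median log2 ratio of red cell genes was 1.04 for Sm22-Cre over floxed and 2.32 for Cdh5-Cre over floxed, and that of platelet genes 0.32 and 1.34. Heart muscle genes had medians of -0.87 and 0.47 in the same 2 comparisons. So the platelet, red cell and heart lists were all highest in Cdh5-Cre. They differed in the lowest group, which was floxed for the platelet and red cell lists and Sm22-Cre for the heart list. The amount of blood in the samples was not recorded in the labels, and its part in the platelet, red cell and neutrophil values was not tested.

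Genes of the cells in which Cdh5-Cre is active were modestly lower in Sm22-Cre. Of 27 measured endothelial genes 24 were lower, none past 2-fold as deposited, with a median of -0.42. Plvap, which forms the diaphragms of fenestrae and caveolae, was at 22.5 FPKM in Sm22-Cre, 45.6 in Cdh5-Cre and 21.2 in floxed. Cldn5, a tight junction protein, was at 20.8, 41.3 and 16.9 FPKM, and Vwf, the clotting glycoprotein stored in endothelium and platelets, at 67.7, 111 and 62.2. Pecam1, the most abundant of the list, was at 151, 163 and 136 FPKM, and the angiopoietin receptor Tek at 15.8, 16.3 and 15.3. Erg, an endothelial transcription factor, was at 28.2 FPKM in Sm22-Cre and 22.9 in Cdh5-Cre. Sm22-Cre and floxed were thus close to each other for most of these, with Cdh5-Cre above.

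Adventitial fibroblast genes were lower in Sm22-Cre in all 22 measured members, 3 of them past 2-fold, with a median of -0.55. These cells form the outer coat and secrete matrix and its modifiers. Clec3b (tetranectin) was at 151 FPKM in Sm22-Cre, 354 in Cdh5-Cre and 145 in floxed, Igfbp6, a binding protein of insulin-like growth factor 2, at 70.8, 158 and 73.1, and Pi16, a marker of adventitial progenitor-like fibroblasts, at 220, 478 and 207. For all 3, Sm22-Cre and floxed differed little and Cdh5-Cre stood apart. Dcn and Lum, proteoglycans that coat collagen fibrils, had ratios of -0.37 and -0.16. Pdgfra, the receptor that defines fibroblasts, was at 23.6 and 25.2 FPKM.

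Markers of tissue around the aorta differed by tissue. All 11 measured mesothelial and epithelial genes were lower, with a median of -0.72. The keratins Krt19 (2.16 FPKM in Sm22-Cre, 7.16 in Cdh5-Cre), Krt8 (1.36 and 4.32) and Krt7 (1.76 and 4.71) were past 2-fold. Of 12 measured Schwann cell and nerve genes 11 were lower, with a median of -0.58. Npy, the cotransmitter of sympathetic nerves, was at 3.15 and 8.37 FPKM, the only member past 2-fold. Of 20 white and brown fat genes 8 were higher and 12 lower, with a median of -0.13. Adipoq was at 33.8 and 37.4 FPKM and the brown fat uncoupler Ucp1 at 62.0 and 67.4. Cox7a1, shared by brown fat and striated muscle, was at 26.1 and 54.9 FPKM and was the only fat list member past 2-fold. Cartilage genes had a median of -0.36, with none past 2-fold as deposited.

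Smooth muscle contractile genes, the genes of the cells in which Sm22-Cre is active, were split. Of 25 measured, 12 were higher and 13 lower in Sm22-Cre, none past 2-fold, with a median of -0.04. Myh11, the smooth muscle myosin heavy chain, stood at 1267 FPKM in Sm22-Cre, 1142 in Cdh5-Cre and 1341 in floxed. Lmod1, an actin nucleator, was at 203, 210 and 216 FPKM. The calcium-dependent regulators Cald1 (caldesmon, 670, 352 and 730 FPKM) and Ppp1r12a (the myosin phosphatase targeting subunit, 126, 67.9 and 126) were higher in Sm22-Cre, with ratios of 0.93 and 0.88. The small phosphatase inhibitor Ppp1r14a was lower, at 390, 613 and 366 FPKM. Vcl (vinculin) and Itga8, which link the contractile apparatus to the matrix, had ratios of 0.82 and 0.80. Myocd, the coactivator of SRF, was at 35.7, 22.9 and 28.9 FPKM, while the intermediate filament gene Des was at 55.3, 92.4 and 58.1.

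**Figure D3:**
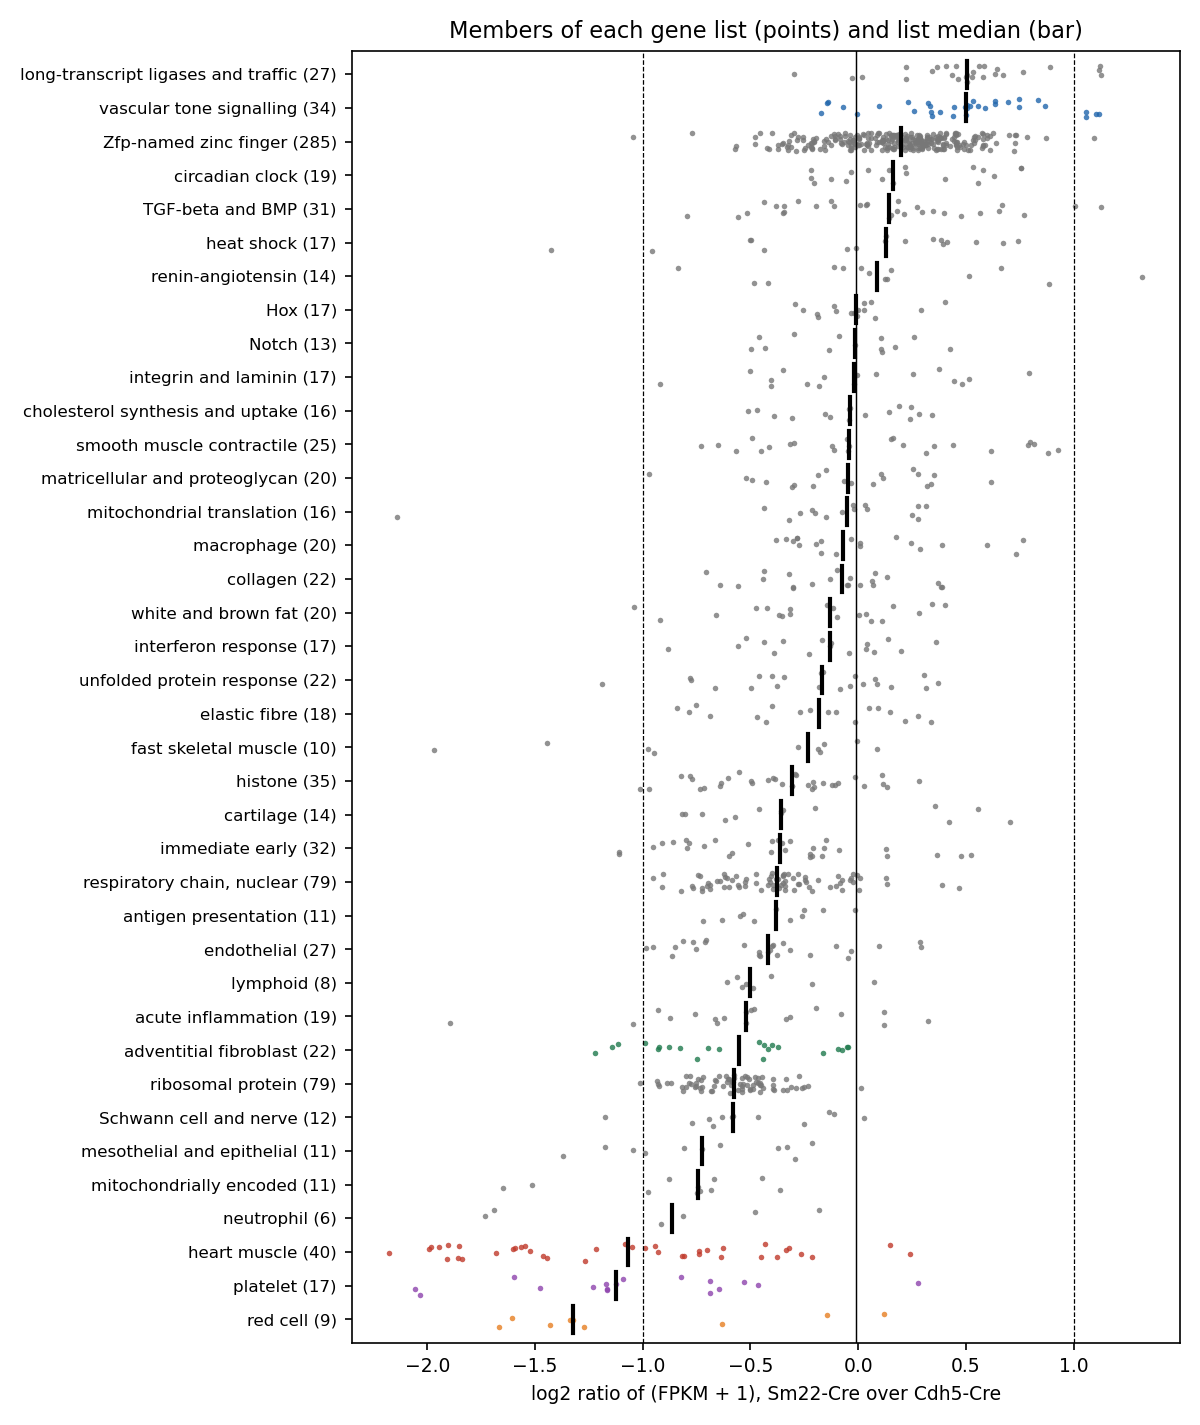
Log2 ratio of (FPKM + 1), Sm22-Cre over Cdh5-Cre, of every measured member of the lists (points; number measured in brackets) with the list median (thick bar), ordered by median. The thin line is the median of all genes (-0.01) and dashed lines mark 2-fold; red cell, platelet and heart muscle genes are at the bottom, and vascular tone genes and the long-transcript list at the top.

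Genes of vascular tone were mostly higher in Sm22-Cre. Smooth muscle relaxes when nitric oxide raises cyclic GMP and its kinase, and contracts when receptors release calcium through inositol trisphosphate and inhibit myosin phosphatase. Of 37 listed genes 34 were measured, of which 29 were higher in Sm22-Cre and 4 past 2-fold, against 0.403% of all genes. The median log2 ratio was 0.50. With the trend on transcript length and GC content described below removed, the median was 0.20 and none of the 4 stayed past 2-fold (0.83 for Htr1b, 0.62 for Prkg1, 0.60 for Slc8a1 and 0.58 for Pde3a). Their summed FPKM was 1551 in Sm22-Cre, 1094 in Cdh5-Cre and 1570 in floxed, so the Sm22-Cre level was close to floxed. The list's median was -0.05 for Sm22-Cre over floxed and -0.52 for Cdh5-Cre over floxed.

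All 7 cyclic GMP genes were higher, with a median of 0.53. Prkg1, the cyclic GMP-dependent kinase, was at 10.1 FPKM in Sm22-Cre, 4.34 in Cdh5-Cre and 10.5 in floxed. Pde3a and Pde5a, phosphodiesterases that break down cyclic nucleotides, were at 53.3, 25.1 and 60.6 FPKM and at 46.1, 25.5 and 47.9 FPKM. The subunits of soluble guanylate cyclase, the nitric oxide receptor, differed less, with ratios of 0.34 for Gucy1a1 and 0.50 for Gucy1b1. All 6 measured channels and transporters were higher as well. They included Slc8a1, the sodium-calcium exchanger (22.1, 9.64 and 22.1 FPKM), Kcnma1, the pore of the calcium-activated potassium channel (13.2, 7.46 and 14.9), and Cacna1c, the L-type calcium channel (11.1, 6.46 and 14.9).

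Of 11 genes of the contractile G protein arm, through which the angiotensin receptor signals, 8 were higher and none past 2-fold. Plcb4, a phospholipase C, was at 201, 119 and 216 FPKM, and Rock1 and Rock2 had ratios of 0.52 and 0.63. The G protein subunits Gnaq, Gna13 and Gna12 had ratios of 0.44, 0.34 and -0.01. Among receptors, the serotonin receptor Htr1b (7.25, 2.85 and 6.09 FPKM) was past 2-fold, while the endothelin receptors Ednra and Ednrb had ratios of 0.23 and 0.10. Of the RGS proteins, which speed up the switching-off of G proteins, the 3 in this list were higher, with Rgs5 at 186, 102 and 170 FPKM, Rgs4 at 57.6, 40.3 and 59.6, and Rgs2 at 16.0, 11.0 and 17.9.

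The renin-angiotensin genes themselves showed no common direction. Of 19 listed genes 14 were measured, of which 9 were higher in Sm22-Cre and 5 lower, with a median of 0.09. Lnpep (mm9 chromosome 17, 17664687 to 17761453), the peptidase that binds angiotensin IV, was at 30.0 FPKM in Sm22-Cre, 11.4 in Cdh5-Cre and 34.4 in floxed, and had the highest ratio of all symbol-bearing genes measured above 0 in both Cre groups (1.32). Ace, which makes angiotensin II, was at 187, 202 and 184 FPKM. Ren1, renin, was at 1.45, 3.37 and 3.37 FPKM, and the mineralocorticoid receptor Nr3c2 at 8.04, 3.89 and 8.26. Enpep, which removes the first residue of angiotensin II, was at 8.23, 4.84 and 7.17 FPKM.

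Matrix genes, which form the elastic and collagenous wall affected in Marfan syndrome, differed less. No member of the elastic fibre, collagen, matricellular or integrin and laminin lists passed 2-fold in either direction as deposited. With the length and GC trend removed, Itga6, a laminin receptor subunit (-1.06), and Col12a1, a fibril-associated collagen (-1.03), were past 2-fold lower. The medians were -0.18 over 18 elastic fibre genes, -0.08 over 22 collagen genes, -0.05 over 20 matricellular genes and -0.02 over 17 integrin and laminin genes. Fbn1, the fibrillin gene altered in Marfan syndrome, was at 57.9 FPKM in Sm22-Cre, 47.6 in Cdh5-Cre and 56.4 in floxed. Eln was at 1269.7, 1147 and 1134 FPKM, and the cross-linking enzymes Lox and Loxl1 had ratios of 0.34 and -0.69. Fibrillar collagens were lower in all 6 cases, from -0.64 for Col1a1 to -0.04 for Col1a2, whereas 7 of 8 basement membrane chains were higher, up to 0.38 for Col4a6. Of 11 microfibril genes 9 were lower, with a median of -0.40, Mfap2 at 20.1 and 36.8 FPKM and Fbln2 at 83.1 and 141.

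As deposited, TGF-β and BMP genes divided by role. With the length and GC trend described below removed, the receptor median went from 0.34 to 0.14. The ligand median went from -0.31 to -0.14. Of 31 measured, 19 were higher and 12 lower, 2 were past 2-fold and the median was 0.14. Receptors were higher in 8 of 9 cases. Bmpr2, the type II BMP receptor, was at 17.9 FPKM in Sm22-Cre, 7.69 in Cdh5-Cre and 21.8 in floxed, Bmpr1a at 80.7, 47.0 and 92.6, and Tgfbr1 at 40.4, 25.3 and 39.5, whereas the endothelial receptor Acvrl1 was at 47.0, 61.6 and 46.9. Ligands were lower in 5 of 8 cases, with Bmp4 at 29.2, 51.5 and 27.8 FPKM. The activin subunit gene Inhba was the exception past 2-fold, at 18.9, 8.92 and 20.5 FPKM. The target gene Id3 (215 and 232 FPKM) was close to equal. Notch genes had a median of -0.02, and none of 13 was past 2-fold.

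Immediate early genes, which respond within minutes to stimulation and to tissue handling, were mostly lower in Sm22-Cre. Of 32 measured, 27 were lower and 2 past 2-fold, with a median of -0.36. The 2 were Nr4a1, an orphan nuclear receptor (25.5 FPKM in Sm22-Cre, 56.1 in Cdh5-Cre, 34.8 in floxed), and Klf2, the shear-stress factor of endothelium (31.7, 69.5 and 37.4). Fos was at 7.99, 14.6 and 10.1 FPKM, while Klf6 (63.6, 43.9 and 73.9) and Sgk1 (54.3, 38.8 and 50.8) had the reverse direction. Acute inflammation genes were lower in 16 of 19 cases, with a median of -0.52. Hamp, the iron regulator hepcidin, was at 2.44, 11.8 and 6.05 FPKM, and Cebpb at 7.86, 17.3 and 9.35. Interferon response genes had a median of -0.13 and antigen presentation genes of -0.38, with none of 17 and none of 11 past 2-fold.

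Circadian and stress lists held single genes that stood out. Of 19 clock genes 13 were higher in Sm22-Cre and none was past 2-fold. Arntl, the BMAL1 activator, was at 5.02 FPKM in Sm22-Cre, 2.88 in Cdh5-Cre and 1.77 in floxed, and its partner Clock at 10.9, 6.08 and 10.4. Among heat shock genes the large chaperone Hsph1 was at 53.5, 31.5 and 27.0 FPKM. The small heat shock proteins Hspb1 (265, 715 and 198 FPKM) and Cryab (161, 313 and 168) had the reverse direction, and Hspb1 was past 2-fold with a ratio of -1.43. Of the endoplasmic reticulum chaperones Sdf2l1 (5.95, 14.9 and 5.16 FPKM) was past 2-fold, while Hspa5 was at 284 and 281 FPKM in the Cre groups. With the length and GC trend removed, neither Hspb1 nor Sdf2l1 stayed past 2-fold. Cholesterol genes had a median of -0.04, with none of 16 past 2-fold.

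Mitochondrial ribosomal RNA and Lars2 were among the transcripts with the largest differences. Lars2 (mm9 chromosome 9, 123276058 to 123371782), the leucyl-tRNA synthetase of mitochondria, was at 81.9 FPKM in Sm22-Cre, 364 in Cdh5-Cre and 137 in floxed, a log2 ratio of -2.14. The 15 other mitochondrial synthetases lay between -0.44 and 0.32. The mitochondrially encoded ribosomal RNAs mt-Rnr1 (281, 883 and 267 FPKM) and mt-Rnr2 (359, 1025 and 344) had ratios of -1.65 and -1.51, larger than the coding mitochondrial genes, among them mt-Nd1 at -0.75 and mt-Nd5 at -0.44. All 11 measured mitochondrially encoded genes were lower, with a median of -0.74. Relative to all genes, this median depended strongly on the processing, from -0.96 to -0.01 over the settings given at the end.

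The large gene families differed in direction. Of 79 cytosolic ribosomal protein genes 78 were lower, with a median of -0.58 and a single one, Rps15, past 2-fold as deposited. Of 79 nuclear genes of the respiratory chain 73 were lower, with a median of -0.38. Histone genes had a median of -0.31. Zfp-named zinc finger genes were higher in 209 of 285 cases, with a median of 0.20; their median transcript length was 3411 bases and their median GC content 45.4%. A list of ubiquitin ligases, traffic and chromatin genes composed for its long transcripts, with some of its members' results known, had 25 of 27 higher and a median of 0.50. It included Arhgap5, a GTPase activating protein (13.8 FPKM in Sm22-Cre, 5.79 in Cdh5-Cre, 15.2 in floxed), Man1a2, a mannosidase of the Golgi (34.8, 15.5 and 37.6), and Lmbrd2 (4.58, 1.57 and 5.15).

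The log2 ratio followed transcript length and GC content across genes. Over 12275 genes with a protein-coding transcript, Spearman's correlation was 0.55 with length and -0.58 with GC content, as a description across genes that share the same 2 groups. The 10% of genes with the shortest transcripts had a median of -0.37 and the 10% with the longest 0.33. The 10% with the lowest GC content had 0.34 and the highest -0.32. A smooth surface of both properties held 47.2% of the variance of the ratios. Genes higher by 2-fold had a median length of 6906 bases and a GC content of 41.5%, against 3118 bases and 50.4% for all, and genes lower by 2-fold had 1390 bases and 55.4%. For Cdh5-Cre over floxed, the correlation was -0.58 with length and 0.53 with GC, and for Sm22-Cre over floxed -0.24 and -0.02.

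**Figure D4:**
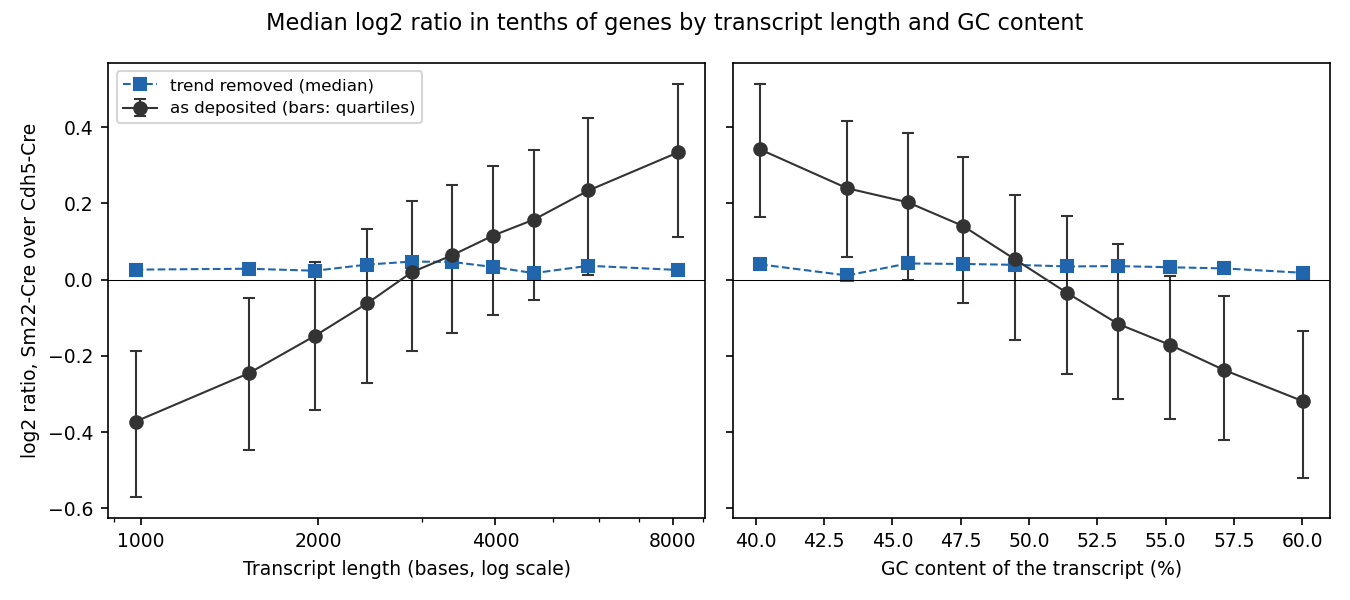
Median log2 ratio, Sm22-Cre over Cdh5-Cre, in 10 equal bins of 12275 genes ordered by transcript length (left, log axis) and by GC content (right); circles are deposited values with bars from the lower to the upper quartile of genes, squares are medians after the trend was removed. The deposited medians climb from -0.37 to 0.33 with length and go down from 0.34 to -0.32 with GC content.

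With this trend taken out, the heart, platelet and red cell lists stayed far below all genes and several other lists came nearer to 0. The median of the heart muscle list became -1.02, of the platelet list -0.84, of the red cell list -0.91 and of the adventitial list -0.49. The endothelial list stood at -0.28, the neutrophil list at -0.46 and the lymphoid list at -0.26. Immediate early genes stood at -0.20, antigen presentation genes at -0.09, histone genes at 0.0006 and smooth muscle contractile genes at 0.13. The median of vascular tone genes became 0.20, of the long-transcript list 0.18, of zinc finger genes 0.05, of ribosomal proteins -0.18 and of the nuclear respiratory chain 0.01. Genes past 2-fold numbered 8 higher (0.0652%) and 74 lower (0.603%) of 12275, against 24 (0.196%) and 108 (0.88%) of the same genes before. Of these, 57 lower and 2 higher genes passed both ways. The 2 higher genes are Zbtb16, a zinc finger repressor induced by glucocorticoids (14.5 FPKM in Sm22-Cre, 6.42 in Cdh5-Cre, 7.66 in floxed), and Mamdc4 (3.65, 1.13 and 2.07). Lars2 kept a ratio of -2.18, Ppbp -1.95 and Myl2 -1.82, whereas Lnpep stood at 0.79, Prkg1 at 0.62 and Bmpr2 at 0.61, under 2-fold. Other genes past 2-fold as deposited also fell under it. Among them were Clec3b, Igfbp6, Krt19, Krt8, Npy, Cox7a1, Inhba, Nr4a1, Klf2, Cebpb, Hspb1, Sdf2l1 and Rps15. Some list members passed 2-fold only with the trend removed. Besides Itga6 and Col12a1, these included Emcn (endothelial, -1.05), Rps20 (ribosomal protein, -1.18), Atp5g1 (nuclear respiratory chain, -1.13) and Clec3a (cartilage, 1.04). What made the trend was not tested, and its part in the vascular tone, ribosomal protein and zinc finger values cannot be told apart from a difference between the groups.

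**Figure D5:**
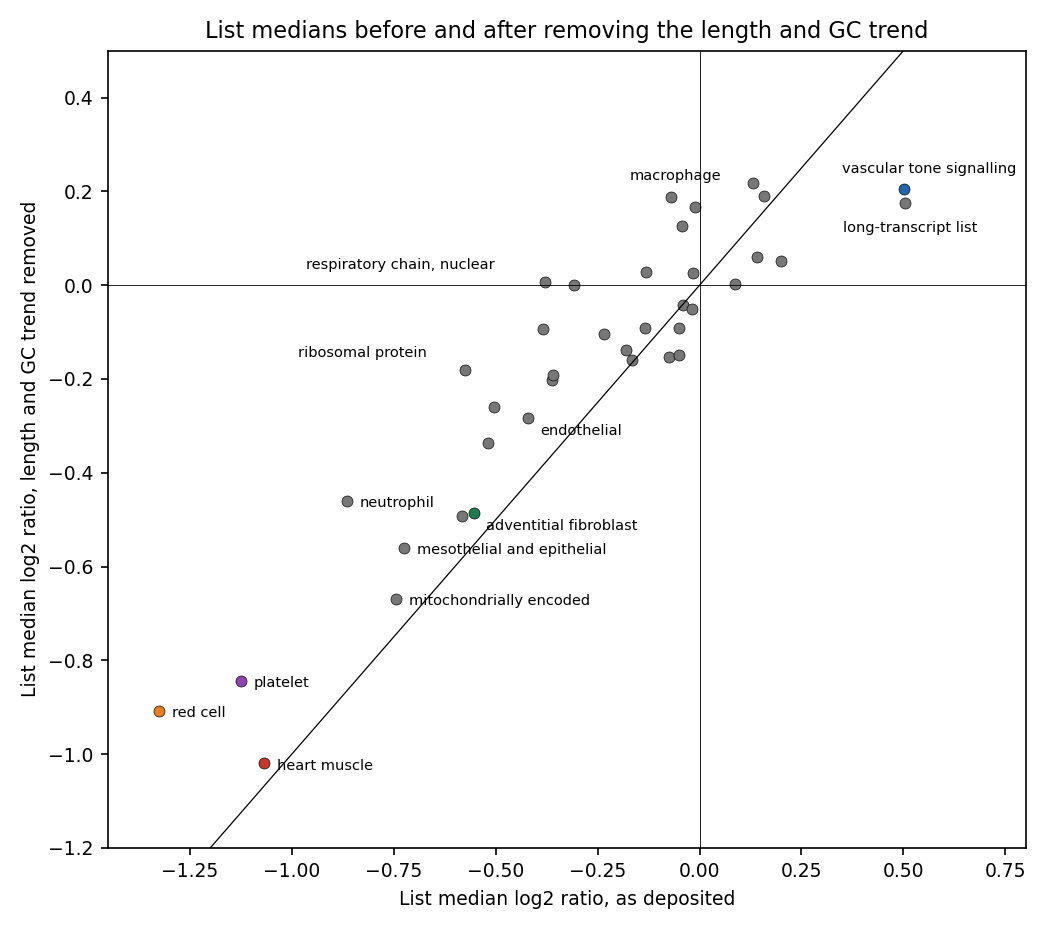
Median log2 ratio of each list as deposited (horizontal) and after the length and GC trend was removed (vertical); the diagonal is equality. Heart muscle stays near the diagonal (-1.07 and -1.02), while ribosomal protein, respiratory chain and vascular tone medians move towards 0.

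At the ends of the ranking, genes with a symbol and values above 0 in both groups repeated these groups. The 15 lowest were Mir214, Myl2, Lars2, Ppbp, Nrgn, Csrp3, Tnni3, Ckm, Myl3, Myl7, Myl4, Hamp, Tnnc1, Mb and Cox6a2, with ratios from -2.29 to -1.84. Mir214 is a microRNA hairpin inside a longer transcript, listed at 0.768 FPKM in Sm22-Cre and 7.64 in Cdh5-Cre with a status of too little data, and a poly-A library does not measure the mature microRNA. The 15 highest held Lnpep, Slc8a1, Htr1b, Bmpr2, Arhgap5, Man1a2, Lmbrd2 and Mamdc4, described above, and Pi15, Adnp, Apol7d, Gm830, Gm15886, Gm16332 and Gm26460, with ratios from 1.32 to 1.10. Pi15, a secreted peptidase inhibitor of the vessel wall, was at 66.2 FPKM in Sm22-Cre, 27.7 in Cdh5-Cre and 70.0 in floxed. A further 48 genes were listed at 0 in 1 of the Cre groups and above it in the other, 25 in Sm22-Cre and 23 in Cdh5-Cre. None of these 48 is protein-coding and 34 are small RNAs, with Gm25982, listed at 0 and 9.20 FPKM, the largest. They are all among the genes past 2-fold and no fold is given for them.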

How the data were processed

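Aortic RNA of 9 mice was sequenced, 3 libraries in each of 3 groups, assigned by the Cre label of each sample. The submitters' processing notes name Cufflinks 1.3.0, TopHat2 2.0.8, SAMtools 0.1.7, Bowtie2 2.1.0 and the mouse build mm9; the roles of these tools and the annotation are not given in the sources used here. The deposited table gives FPKM, which the authors computed per group with the 3 libraries combined, in 113004 rows (37668 genes in 3 pairs of groups), per the file headers. Depth is unknown and no value could be set against replicate error.

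The pair of Sm22-Cre and Cdh5-Cre was used. Log2 ratios were taken on FPKM + 1, which understates differences of low genes; ratios printed as "times as high" are of FPKM. Genes needed 1 FPKM in either group. HIDATA in any pair removed 7 genes, among them Acta2 and Flna. The status was OK for 72.1% of the genes analysed and FAIL for 27.6%, and both were kept (SD of ratios 0.41 and 0.37). A listed locus is shared with another gene by 42.9%, so estimates may be divided between neighbours. Positions are mm9, with 1 added to the start. GENCODE M21, on another build, gave symbols (32638 of 37668 genes), length and GC content only. Promoters are of RefSeq on GRCm38.p6. A polynomial of degree 3 in log2 length and GC content gave the trend.

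Members and the 38 lists (692 of 696 symbols matched) were chosen with earlier results of these data known, so no list is independent support. The ratio rule of 2-fold replaced a test. Named genes are Agtr1a, Agtr1b, Cdh5, Tagln and Acta2, the 15 highest and 15 lowest ratios, Myl-named genes, and in each list the 6 largest and 3 most abundant members with any past 1.5-fold against its sign, and genes listed at 0 in 1 group, by count; other members are named as examples of their role, chosen after their values were seen. No column of another sample was present. Alternatives were other pseudocounts, filters, scalings, statuses and the trend removed. Scripts were tested on simulated data. Python 3.11.15, pandas 2.3.3, NumPy 2.4.6 and SciPy 1.17.1 were used.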

Additional observations from a re-analysis of the deposited data

How the results depend on the processing

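No paired analysis was possible because the deposited values are 1 per group, and for the same reason no library could be left out. The counts of genes past 2-fold (57 higher and 175 lower) moved with the scale and the low genes. They were 154 and 368 with a pseudocount of 0.1, 6 and 67 with a pseudocount of 5, 618 and 1077 at a ratio of 1.5, 32 and 106 without shared loci, 8 and 74 with the trend removed, and 127 and 112 with equal sums apart from mitochondrial, red cell, platelet and heart genes. Equal sums over all genes, chosen after seeing the data, gave 210 and 91. The share of higher genes among those past 2-fold was thus 24.6% as deposited, 53.1% and 69.8% in the last 2 settings. The counts were 30 and 118 with 5 FPKM in either group, 32 and 127 with 1 FPKM in both, and 34 and 150 without genes listed at 0. Relative to the median of all genes, no list with a median of 0.1 or more in size changed direction in the 12 other settings. Not all of these settings could have changed it. Centring on the median leaves this measure the same by construction, and rescaling to equal sums can move it only through the pseudocount. The adventitial list moved to -0.35 and ribosomal proteins to -0.20 under quantile normalization, and the platelet list to -0.64 with a pseudocount of 5. The red cell list moved to -0.54 without the low-value filter, -0.78 under quantile normalization and -0.38 with status OK only. Removing the trend moved ribosomal proteins to -0.21 and vascular tone genes to 0.17. The heart muscle list stayed between -1.43 and -0.85. The mitochondrially encoded list ranged from -0.96 to -0.01, so in 1 setting almost no difference was left. Tagln (-0.12) changed sign to 0.16 with equal sums, 0.066 with equal sums apart from those lists, 0.61 under quantile normalization and 0.13 with the trend removed; the cause was not tested.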

Other observations

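Outside the lists, further genes of known role were lower in Sm22-Cre by 2-fold or more both as deposited and with the trend removed; they were chosen after their values were seen. Ankrd1, a stress-responsive protein of heart and vessel muscle, was at 15.8 FPKM in Sm22-Cre, 49.1 in Cdh5-Cre and 23.6 in floxed. Pgam2, the muscle phosphoglycerate mutase, was at 6.53, 22.6 and 13.9 FPKM, and Mybphl, an atrial myosin-binding protein, at 2.61, 9.45 and 6.13.

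A different order of groups held for Ctla2a, a cysteine protease inhibitor (24.1 FPKM in Sm22-Cre, 86.5 in Cdh5-Cre, 10.6 in floxed), its paralogue Ctla2b (4.04, 10.3 and 2.61) and Mpig6b, a receptor of megakaryocytes and platelets (1.07, 3.90 and 0.395), which were lowest in floxed like the platelet list. For 5 more genes, Sm22-Cre stood nearer to floxed than Cdh5-Cre did. This was the common order, as it held in FPKM for 149 of the 175 genes lower by 2-fold or more as deposited. Adamtsl2, a protein that binds fibrillin, was at 21.1, 58.7 and 20.3 FPKM, the homeobox factor Meox1 at 4.43, 13.1 and 4.93, the ligand Wnt11 at 4.18, 11.3 and 4.85, and the factors Tcf21 and Twist2 at 6.33, 15.6 and 7.75 and at 6.18, 14.8 and 6.44 FPKM.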
